A study of Mus musculus with 2 samples.

Results

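Mir126, Mir142, Mir150, Mir155, Mir144, Mir451 and Mir223 are miRNAs known for their abundance in blood or endothelial cells, and their levels were examined in prospermatogonia and in mESCs as a measure of blood or vessel RNA in the germ cell sample. They were chosen by name, with earlier results of these data known, and all 7 were among the 1638 listed miRNA features. The smRNA-seq data used here comprised 1 library of wild-type E14 mESCs, a line of pluripotent cells. They also comprised 1 library of male germ cells from C57Bl/6J embryos at E15.5. For naive E14 cells the methods describe a culture without feeder cells in N2B27 with LIF and inhibitors of MEK and GSK3, but the label of the smRNA library does not name its medium. The labels call the germ cells primordial and of wild-type genotype, whereas the study calls them prospermatogonia, the name used here, and its methods add that the mothers carried an Oct-4/GFP transgene active in the developing gonad. For the isolation of the cells the methods refer to an earlier description. How it was done and how many embryos were pooled is not given in the sources used here. With 1 library per group no difference has a replicate check, and no test across conditions was made.

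miRNAs are short RNAs that are cut from hairpin precursors and pair with mRNAs mainly through their seed, bases 2 to 8 from the 5′ end. Some are so abundant in a single lineage that they are widely read as markers of it. In the fetal testis, germ cells lie in cords between vessels and blood, so RNA of both can accompany a germ cell preparation, depending on how the cells are isolated. Mir126 is expressed from the Egfl7 gene of endothelial cells and modulates the response to VEGF. Mir142 is found in nearly all blood lineages, and it has also been described in mESC cultures. Mir150 is abundant in mature lymphocytes, where it restrains Myb, and Mir155 is induced in activated lymphocytes and macrophages. Mir144 and Mir451 are made from a shared erythroid transcript, and Mir223 marks granulocytes and other myeloid cells.

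The mature sequences are shown with their seeds in capitals, so that the 7 miRNAs can be compared by seed. All sequences are RefSeq entries (GRCm38.p6), in which each of the 7 had at least 1 entry. The features named Mir126 and Mir451 correspond to Mir126a and Mir451a there.
mmu-miR-126a-3p: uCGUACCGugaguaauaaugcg
mmu-miR-142a-3p: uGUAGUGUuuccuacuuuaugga
mmu-miR-142a-5p: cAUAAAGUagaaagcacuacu
mmu-miR-150-3p: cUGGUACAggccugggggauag
mmu-miR-155-5p: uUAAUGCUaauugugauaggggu
mmu-miR-144-3p: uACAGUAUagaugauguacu
mmu-miR-451a: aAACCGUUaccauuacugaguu
mmu-miR-223-3p: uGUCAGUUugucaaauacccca
The 7 miRNAs had 11 mature entries, and none of these shared its seed with another of the 1738 mature miRNAs in the RefSeq table. No mature sequence of the 7 occurred in full in the hairpin of another miRNA gene of that table. The arms mmu-miR-126a-5p and mmu-miR-150-5p were not compared here.

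Positions are given on GRCm38, the build named in the submitters' processing notes, on which 1300 of the 1638 deposited positions are those of an annotated miRNA gene (GENCODE vM21). The methods name mm9 instead. Mir126 lies at chr2:26591357-26591429 on the plus strand within Egfl7, where it lies in an exon of 1 of the 9 transcripts that span it, and in an intron of Gm20532. Mir142 lies at chr11:87756864-87756927 (plus strand) in an intron of the long non-coding RNA Mir142hg. Mir155 lies at chr16:84714140-84714204 (plus strand) in an exon of the long non-coding RNA Mir155hg, and Mir223 at chrX:96242817-96242926 (plus strand) in an exon of the non-coding RNA F630028O10Rik. Mir150, at chr7:45121757-45121821 (plus strand), lies in no other annotated gene. Mir144, at chr11:78073005-78073070, and Mir451, at chr11:78073170-78073241, are separated by 99 bases on the plus strand, and no other listed feature lies within 10 kb of any of the 7.

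A second miRNA gene is annotated on the other strand at Mir126, Mir142 and Mir451, namely Mir126b, Mir142b and Mir451b. These are not among the listed features, and the sources used here do not say whether reads were counted by strand, so that reads of both strands cannot be told apart at these loci. The hairpin of Mir142, the feature with the most reads, is shown with both mature arms in capitals, since the table gives reads per hairpin and does not say which arm they came from. The hairpin of Mir451a is shown beside it because its single mature RNA, in capitals, reaches into the loop. Mir451 is known to be cut by Ago2 without Dicer.
Mir142: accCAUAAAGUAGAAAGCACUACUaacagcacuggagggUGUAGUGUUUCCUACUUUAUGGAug
Mir451a: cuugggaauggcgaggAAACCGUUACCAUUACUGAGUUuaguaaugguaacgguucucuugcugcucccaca

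The authors deposited log2 values, from which whole reads were recovered within 0.0165 reads, and a feature at the lowest value of its library was set to 0 reads. In this way 110455 reads lay on miRNA features in the mESC library and 155237 in the prospermatogonia library. Levels are given as shares of these miRNA reads with 95% Wilson intervals, which cover counting error only, as PCR copies of a molecule are counted separately. RPM, reads scaled to a library of 1000000, are given where the deposited scale matters, and they rest on reading the deposited values as log2 RPM of library totals of 449643 and 2869578 reads. Where no read was found, 3 reads were taken as the floor, or 0.00272% of the miRNA reads in mESCs and 0.00193% in prospermatogonia. The Wilson interval of 0 reads reaches higher, to 0.00348% in mESCs and 0.00247% in prospermatogonia. Lists of other miRNAs describe both libraries. As they were chosen with earlier results of these data known, they are no independent check of the labels. The Mir290 cluster of pluripotent cells accounted for 24.5% of miRNA reads in mESCs and 3.25% in prospermatogonia. The 8 listed features of the X-linked Mir743 to Mir470 cluster accounted for 0.0127% and 10.7%, which is a description and no check of the germ cell label, since the cluster was chosen because it had been seen high in this library. As a scale, Mir182 had the most reads in both libraries, 27.8% and 25.1% of those on miRNAs.

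Summed over the 7 miRNAs the level was lower in prospermatogonia than in mESCs, and the sum was mostly that of Mir142 and Mir126. Together the 7 held 192 reads in prospermatogonia, 0.124% of the miRNA reads (95% interval 0.107% to 0.142%), against 703 reads or 0.636% in mESCs (0.591% to 0.685%). The summed share was thus 5.15-fold lower in prospermatogonia (4.39 to 6.04), and the summed RPM was 23.4-fold lower (19.9 to 27.4). By RPM all miRNA features together were 4.54-fold lower in prospermatogonia. They held 24.6% of the mESC library total and 5.41% of the prospermatogonia total, and this factor is part of each RPM fold given here. The mESC library is no blank for blood or vessel RNA, and the level of these miRNAs in germ cells free of such RNA is not given. Whether the prospermatogonia sample held such RNA was therefore not tested by this comparison. Of the 7, 4 had more than 3 reads in the mESC library too, and from which cells the reads of either library came was not tested. In bulk samples, fewer cells of a type and less RNA per cell cannot be told apart, and with no library of blood or endothelial cells analysed here the reads could not be turned into a share of cells.

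Of the 7 miRNAs, 4 had more than 3 reads in mESCs and 4 in prospermatogonia, and these were Mir126, Mir142, Mir150 and Mir155 in both. Over all listed features, 12.3% had more than 3 reads in mESCs and 13.7% in prospermatogonia. Mir144, Mir451 and Mir223, the erythroid and myeloid miRNAs, stayed below this level in both libraries.

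**Figure D1:**
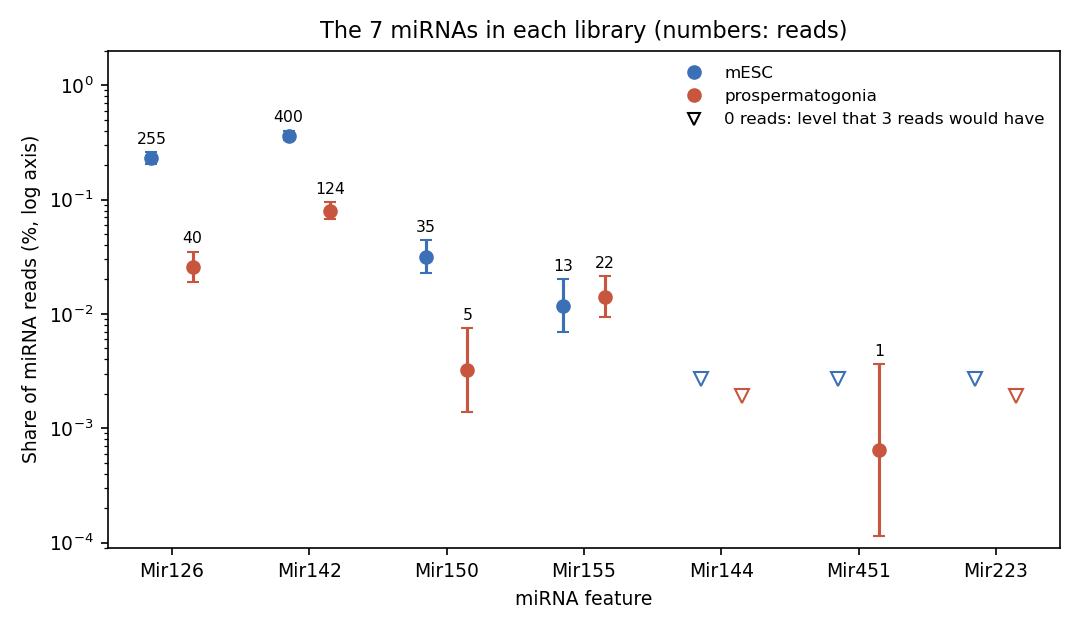
Share of miRNA reads (%, log axis) of each of the 7 miRNAs in the mESC and the prospermatogonia library, with 95% Wilson intervals and the number of reads above each point. Open triangles stand for 0 reads and are drawn at the level that 3 reads would have. Mir126, Mir142 and Mir150 are lower in prospermatogonia with intervals that do not overlap, the intervals of Mir155 overlap, and Mir144, Mir451 and Mir223 have at most 1 read.

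The erythroid pair was nearly absent. Mir144 had 0 reads in mESCs and 0 in prospermatogonia, and Mir451, its neighbour, had 0 and 1. The single read of Mir451 is 0.000644% of the miRNA reads of prospermatogonia, with an interval of 0.000114% to 0.00365% that reaches past the level of 3 reads. Mir451 is known as one of the most abundant miRNAs of red cells. Mir486, another erythroid miRNA, likewise had 0 reads in mESCs and 1 in prospermatogonia. Mir223, the myeloid miRNA, had 0 reads in both libraries. For these 3 miRNAs no fold is given, as both libraries lay at or below 3 reads. At 0 reads in prospermatogonia, the intervals of Mir144 and Mir223 reach up to 0.00247% of the miRNA reads.

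Mir142 was the highest of the 7 in both libraries. It had 400 reads in mESCs, 0.362% of the miRNA reads (0.328% to 0.399%), and 124 in prospermatogonia, 0.0799% (0.0670% to 0.0952%). It ranked 31st of 1638 features in mESCs and 77th in prospermatogonia. Its share was therefore 4.53-fold lower in prospermatogonia (3.71 to 5.54), and at the mESC share the prospermatogonia library would have held 562 reads in place of 124. Its 124 reads were most of those of the 7 miRNAs in prospermatogonia, and the part of blood cells in them was not tested.

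Mir126, the endothelial miRNA, showed a wider gap. It had 255 reads in mESCs, 0.231% of the miRNA reads (0.204% to 0.261%), and 40 in prospermatogonia, 0.0258% (0.0189% to 0.0351%). Its rank went from 43rd to 113th, and its share was 8.96-fold lower in prospermatogonia (6.43 to 12.5). At the mESC share 358 reads would have been found in place of 40. The level was 13.9 RPM in prospermatogonia and 567 RPM in mESCs. Mir126 thus had reads in the culture too, and the part of endothelial cells in the reads of either library was not tested.

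The lymphoid miRNAs Mir150 and Mir155 differed from each other. Mir150 had 35 reads in mESCs, 0.0317% of the miRNA reads (0.0228% to 0.0441%), and 5 in prospermatogonia, 0.00322% (0.00138% to 0.00754%), and its share was 9.84-fold lower in prospermatogonia (3.98 to 24.3). Mir155 had 13 mESC reads, 0.0118% (0.00688% to 0.0201%), and 22 in prospermatogonia, 0.0142% (0.00936% to 0.0215%). Mir155 was thus the only one of the 4 miRNAs with more than 3 reads whose share was not lower in prospermatogonia, at 1.20-fold the mESC share, and the interval of this ratio, 0.614 to 2.36, includes equal shares and also a difference of more than 2-fold. In RPM it was 3.77-fold lower in prospermatogonia (1.92 to 7.39), so that its direction depends on the scale.

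The order of the 7 levels was Mir142, Mir126, Mir150 and Mir155 in mESCs, each above the next with intervals that did not overlap. In prospermatogonia the order was Mir142, Mir126, Mir155, Mir150 and Mir451. There the intervals of Mir126 and Mir155 overlapped, as did those of Mir150 and Mir451, whereas Mir142 lay above Mir126 and Mir155 above Mir150. These are reads per hairpin feature, and dividing them by hairpin length, which runs from 64 bases for Mir142 to 110 for Mir223, left both orders as they were.

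Ratios between the miRNAs within a library do not depend on library totals, and they differed in part between the libraries. Mir142 made up 56.9% of the reads on the 7 miRNAs in mESCs (53.2% to 60.5%) and 64.6% in prospermatogonia (57.6% to 71.0%). Mir126 made up 36.3% (32.8% to 39.9%) and 20.8% (15.7% to 27.1%). Thus Mir142 had 1.57 reads per read of Mir126 in mESCs (1.34 to 1.84) and 3.10 in prospermatogonia (2.17 to 4.42), and these intervals do not overlap. For Mir126 over Mir150 the ratios were 7.29 (5.13 to 10.4) and 8.0 (3.26 to 19.7), with intervals that overlap widely. The part of Mir155 was 1.85% (1.08% to 3.14%) and 11.5% (7.69% to 16.7%), and Mir142 had 30.8 reads per read of Mir155 in mESCs (17.8 to 53.1) and 5.64 in prospermatogonia (3.60 to 8.84). The list therefore did not move between the libraries as a block.

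Among the features past a filter of 10 RPM most had lower RPM in prospermatogonia, and the miRNAs of the list that passed it were set against that shift. Log2 ratios of prospermatogonia to mESC were taken as log2((RPM + 1) / (RPM + 1)), a scale which understates the change of low features, over the 203 features that reached 10 RPM in at least 1 library. Mir126, Mir142, Mir150 and Mir155 passed this filter, Mir126 and Mir142 in both libraries and Mir150 and Mir155 through their level in mESCs alone, so that a lower level of these last in prospermatogonia is partly set by the filter and their ratios are given as values only. The log2 ratio was -5.25 for Mir126, -4.85 for Mir150, -4.33 for Mir142 and -1.79 for Mir155, against a median of -2.52 over the 203 features. Relative to that median, Mir126 lay at -2.73, Mir150 at -2.33 and Mir142 at -1.81, while Mir155 lay 0.73 above it. Of the 203 features, 15 had a lower log2 ratio than Mir126 and 36 a lower one than Mir142.

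**Figure D2:**
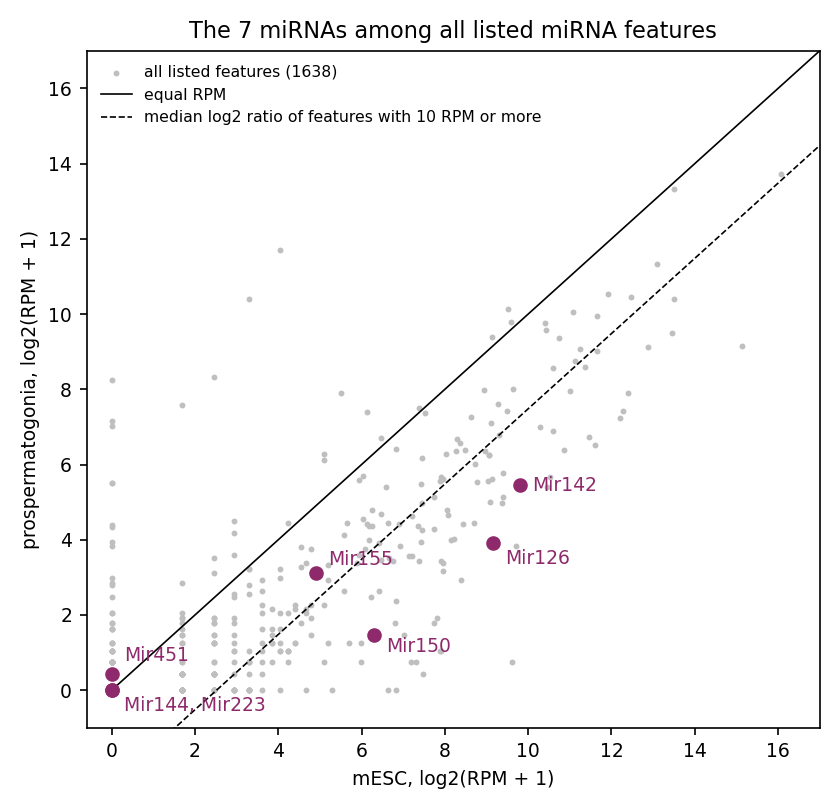
Level of each of the 1638 listed features in mESCs and prospermatogonia, log2(RPM + 1) on both axes, with the 7 miRNAs in purple, the line of equal RPM and the dashed line of the median log2 ratio of -2.52. Mir126, Mir142 and Mir150 lie below the dashed line and Mir155 above it, while Mir144, Mir223 and Mir451 lie at or beside the origin.

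On the scale of library totals the 4 of the 7 miRNAs that passed the filter were each at least 2-fold lower in prospermatogonia, 2 of them having passed through mESCs alone. The backgrounds were 80.8% lower and 9.85% higher of the 203 features, so that the count of lower miRNAs says little about this list. On the scale of all miRNA reads, 3 of these 4, Mir126, Mir142 and Mir150, were at least 2-fold lower, with log2 ratios of -3.14, -2.17 and -3.15, where the backgrounds were 39.9% lower and 20.2% higher. Mir155 was then at 0.26 and past 2-fold in neither direction. Scaling to the median ratio of the 111 features that reached 10 RPM in each library, or to the sum without the 10 highest features of each library, gave -2.96 and -3.07 for Mir126, -1.99 and -2.10 for Mir142, -2.98 and -3.08 for Mir150, and 0.44 and 0.33 for Mir155. The log2 ratios of Mir126 and Mir142, which reached 10 RPM in both libraries, were thus below 0 under each of the 4 scalings. So was that of Mir150, for which the filter favours this direction, and that of Mir155 turned with each scaling other than the library total.

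**Figure D3:**
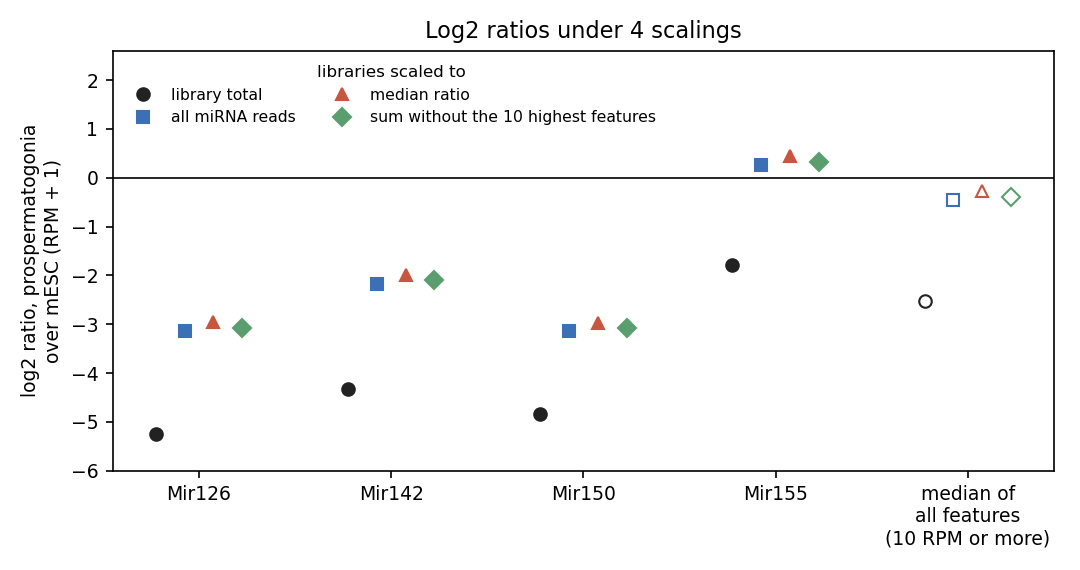
Log2 ratio of prospermatogonia to mESC (RPM + 1) of the 4 miRNAs that passed the filter, with the libraries scaled in 4 ways, and open symbols for the median of the 203 features under the same scaling. Mir126, Mir142 and Mir150 lie below the median and below 0 under each scaling, whereas Mir155 lies above the median throughout and above 0 under 3 of the scalings.

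The features with the levels most like each of these 4 miRNAs were found by the Euclidean distance of log2(RPM + 1) over the 2 libraries. For Mir126 these were Mir200b with 374 reads in mESCs and 38 in prospermatogonia, Mir192 with 185 and 60, and Mir96 with 155 and 58, at distances of 0.56 to 0.88. For Mir142 they were AC116595.1, named Gm25301 in GENCODE, with 304 and 154 reads, Mir20b with 303 and 99, and Mir34c with 297 and 88, at 0.50 to 0.64. Mir150 was closest to Mir100 with 28 and 4 reads, Mir125b-1 with 50 and 7, and Mir200c with 23 and 4, and Mir155 to Mir345 with 16 and 19, Mir341 with 11 and 27, and Mir669c with 16 and 26. With 2 libraries such likeness describes a pair of levels only. The 3 neighbours of Mir155 lay at distances of 0.34 to 0.36.

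Further lists named for blood, vessel wall and gonadal soma were summed to place these levels. Of 12 names of other blood-associated miRNAs 10 were listed, with 1196 mESC reads or a share of 1.08% (1.02% to 1.15%) and 1555 reads or 1.00% in prospermatogonia (0.953% to 1.05%). Nearly all of these were from Mir181c and Mir181d, a pair known from lymphocytes but also expressed in many other tissues. Mir181c had 924 reads in mESCs and 704 in prospermatogonia, and Mir181d had 219 and 728, so that the share of Mir181c was lower in prospermatogonia and that of Mir181d 2.37-fold higher (2.03 to 2.75). On the RPM scale both were lower in prospermatogonia, with log2 ratios of -3.06 and -0.94.

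The remaining blood-associated miRNAs were low in both libraries. Mir342, which lies in the Evl gene and is known from lymphocytes, had 32 reads in mESCs and 43 in prospermatogonia, shares of 0.0290% and 0.0277% whose ratio has an interval that includes 1. Mir146, a miRNA induced by inflammatory signals, had 15 and 2 reads, a share 10.5-fold lower in prospermatogonia (2.69 to 41.3). Mir181a-1 had 2 and 22 reads, Mir181a-2 had 3 and 49, and Mir181b-2 had 1 and 5. The shares of Mir181a-1 and Mir181a-2 were 7.83-fold (2.04 to 30.0) and 11.6-fold (3.84 to 35.2) higher in prospermatogonia. Mir181b-1 and Mir146b had at most 1 read. The list thus held miRNAs whose share was higher and others whose share was lower in prospermatogonia, and the interval of Mir342 included equal shares, as that of Mir155 did.

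The vessel wall and fibroblast list had a lower share in prospermatogonia, as Mir126 and Mir142 did. Its 7 listed features held 3656 mESC reads, a share of 3.31% (3.21% to 3.42%), and 748 reads or 0.482% in prospermatogonia (0.449% to 0.518%), a share 6.87-fold lower (6.35 to 7.43). Mir143, abundant in smooth muscle, had 1393 and 260 reads, and Mir21, broadly expressed and raised in activated fibroblasts, had 2215 and 486. Mir145, the smooth muscle partner of Mir143, had 17 reads in mESCs and 0 in prospermatogonia, which is at least 36.2-fold higher in mESCs by RPM and at least 7.96-fold by share, counted against 3 reads. Mir214 had 28 and 2 reads, Mir199b had 3 and 0, and Mir199a-1 and Mir199a-2 had 0 in both. Most of the summed reads were those of Mir21 and Mir143, both of which had more reads in prospermatogonia than Mir142, the highest of the 7 miRNAs.

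The list for fetal testis soma had a higher share in prospermatogonia. The share of its 3 features was 0.262% in mESCs (0.233% to 0.294%) and 0.399% in prospermatogonia (0.369% to 0.431%), whereas by RPM it was 2.98-fold lower in prospermatogonia. Mir202, abundant in the somatic cells of the gonad, had 0 reads in mESCs and 57 in prospermatogonia, at least 2.98-fold higher by RPM and at least 13.5-fold by share, again counted against 3 reads. Mir140, best known from cartilage, had 280 and 558 reads, and Mir455 had 9 and 4. The part of somatic cells in these reads was not tested.

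**Figure D4:**
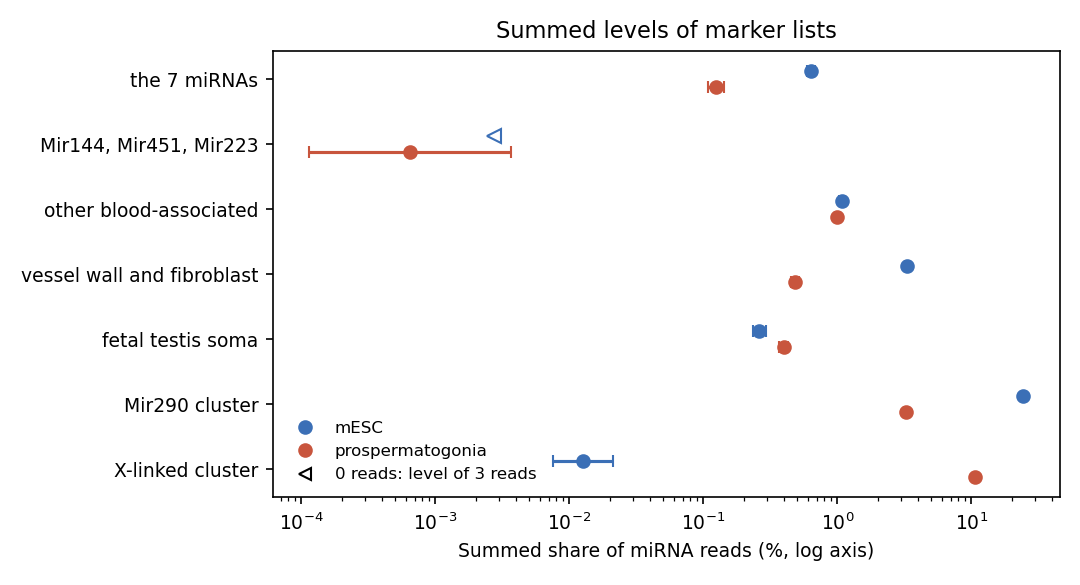
Summed share of miRNA reads (%, log axis) of each list in the mESC and the prospermatogonia library, with 95% Wilson intervals, which are narrower than the symbols for the abundant lists, and an open triangle at the level of 3 reads where the sum is 0. The 7 miRNAs and the vessel wall and fibroblast list are lower in prospermatogonia, the other blood-associated list is at 1.08% and 1.00%, and the fetal testis soma list is higher in prospermatogonia by share, though not by RPM.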

How the data were processed

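The smRNA-seq data used here comprised 1 mESC and 1 prospermatogonia library. Per the labels and methods, the authors size-selected the cDNA on a gel, trimmed the reads (Trim Galore 0.4.1 in the submitters' processing notes) and mapped them with Bowtie through piPipes, and for 1638 miRNA features the authors deposited log2 values of both libraries. The step that made the log2 values, its use of strand and its treatment of reads with several matches are not given in the sources used here. Apart from the lowest, each value was a whole number of reads times a constant, and features without reads, entered at 0.9 reads, were set to 0. Reading the values as log2 RPM follows the unit stated for the RNA-seq data, and shares of miRNA reads do not depend on it.

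The 7 miRNAs and the lists were chosen with earlier results of these data known. Besides them, the features named are those within 10 kb of one of the 7, the 3 nearest in level to each of the 7 with more than 3 reads in a library, the feature with the most reads, and those of the lists. Ratio intervals came from the Wilson interval of the split of reads between the libraries. Alternatives were other denominators, scalings, pseudocounts of 0.1 and 5, and filters. The computations were tested on simulated data. Python 3.11.15, numpy 2.4.6, pandas 2.3.3, statsmodels 0.14.6 and matplotlib 3.10.9 were used.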

Additional observations from a re-analysis of the deposited data

How the results depend on the processing

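No paired analysis was possible because each group has 1 library, and for the same reason no replicate could be left out. No listed feature overlapped one of the 7 miRNAs, so the alternative that adds such features gave no value. Depth limits Mir144, Mir451 and Mir223, and the 5 reads of Mir150 in prospermatogonia. The summed share of the 7 miRNAs, 0.636% in mESCs and 0.124% in prospermatogonia, was 0.156% and 0.00669% of the library totals, 2.08% and 0.405% without the 10 highest features in the denominator, and 0.274% and 0.0438% without Mir142, and it was lower in prospermatogonia each time. With features with a miRNA name only, or the lowest value kept as deposited, it stayed within its counting interval. The number of miRNAs past the read minimum was 4 in both libraries with 3 reads, and stayed between 3 and 5 in prospermatogonia with minimums of 10 and 1.

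The summed log2 ratio of -4.53 became -2.36, -2.17 and -2.29 with scaling to all miRNA reads, to the median ratio and to the sum without the 10 highest features, which raise each ratio by 2.18, 2.37 and 2.26 before the pseudocount, and it was -4.77 without Mir142. In the same order Mir126 went from -5.25 to -3.14, -2.96 and -3.07, Mir142 from -4.33 to -2.17, -1.99 and -2.10, and Mir150 from -4.85 to -3.15, -2.98 and -3.08. Mir155 reversed from -1.79 to 0.26, 0.44 and 0.33. With a pseudocount of 5 RPM Mir150 was at -3.62, since its level in prospermatogonia is below that pseudocount. Over all features, 20 were at least 2-fold higher in prospermatogonia and 164 lower. These numbers were 41 and 81 with scaling to all miRNA reads, 45 and 74 with the median ratio, and 5 and 91 among features with 10 RPM or more in both libraries, and 40 and 230 among all features with a read in at least 1 library.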
